A study of Homo sapiens with 6 samples.

Results

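In 80 autosomal genes, every FAM60A-knockout library lay at least 4-fold above every control library. These genes were chosen by their measured values: each count was scaled by the total of its library to CPM (the count divided by the library total, times 1e6), 0.02 was added, and the lowest knockout CPM had to reach 4 times the highest control CPM. At least 50 counts in each knockout library were also required. The 80 raised genes made up 0.535% of the 14966 autosomal genes with enough counts, out of 62754 genes in the deposited table. With the groups exchanged, the same rule kept 55 of 14648 genes (0.375%). As the knockout-control difference chose the members, it is given for them as a description without a test. The same thresholds were passed by 1 gene without a chromosome in the annotation and by 2 genes outside the autosomes, which are not described.

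RNA-seq was performed on 3 control and 3 FAM60A-knockout libraries of HEK293, an adherent human embryonic kidney line, and the sample labels also name HEK293T. The comparison asks how loss of FAM60A (SINHCAF) alters gene expression. Knockout cells had received Cas9 with guide RNAs against several regions of FAM60A and were kept as a pool after puromycin, not as a single clone. No label or protocol states what the control cells received, or whether libraries of a group came from separate cultures, so p-values measure the spread between libraries only.

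FAM60A is a subunit of the Sin3/HDAC complex, which removes acetyl groups from histones and is known mainly as a corepressor of transcription. Genes with low activity in a given cell type, including many neuronal and immune genes, are often held in a deacetylated state. One signalling route that turns such genes on is NF-kB, a transcription factor held in the cytoplasm by inhibitors such as the product of NFKBIA, which is itself an NF-kB target.

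Total counts ranged from 88361827 to 93346824. FAM60A itself (listed as SINHCAF) was at 11028, 10165 and 12792 counts in control replicates 1, 2 and 3, and at 5684, 5793 and 5449 in the knockout replicates. Control replicate 3 stood apart. It differed at least 4-fold from controls 1 and 2 in 1603 and 1585 of 21031 genes, whereas controls 1 and 2 differed from each other in 9, and knockout libraries differed in 11 to 13. By the same measure, knockout libraries differed from controls 1 and 2 in 1283 to 1401 genes and from control 3 in 710 to 774, so the spread among the controls was as large as the difference between the groups. Markers of this line were counted in every library. VIM, an intermediate filament gene of many cultured lines, was between 22202 and 67908 counts and the keratin KRT18 between 6031 and 13143. LHX1 was between 225 and 1320 counts and PAX2 between 144 and 577. Of the markers of other cell types, PTPRC, the leukocyte marker CD45, and ALB had at most 9 counts, and PDGFRB had 18 to 53. COL1A1, a collagen gene also taken as such a marker, was counted at 1145 to 2526.

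The raised genes were mostly counted from few reads. Their mean knockout CPM had a median of 4.48, with a range of 0.592 to 230, against a median of 21.8 over the eligible genes. CPM is not scaled by gene length, so it gives the depth behind a value and does not rank genes by RNA abundance. Of the members, 9 had at most 3 counts in every control library, 24 had at most 10, and 3 had at least 100 in every control (RPL22L1, GHR and NFKBIA). The ratio of the lowest knockout to the highest control CPM had a median of 9.11. It reached 10 in 35 genes, 20 in 18 and 100 in 6. The 3 knockout libraries lay close together, with a median coefficient of variation of 8.19% over members (5.97% over eligible genes), above 15% in 8 members and highest, at 32.7%, in RNU6-1.

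**Figure D1:**
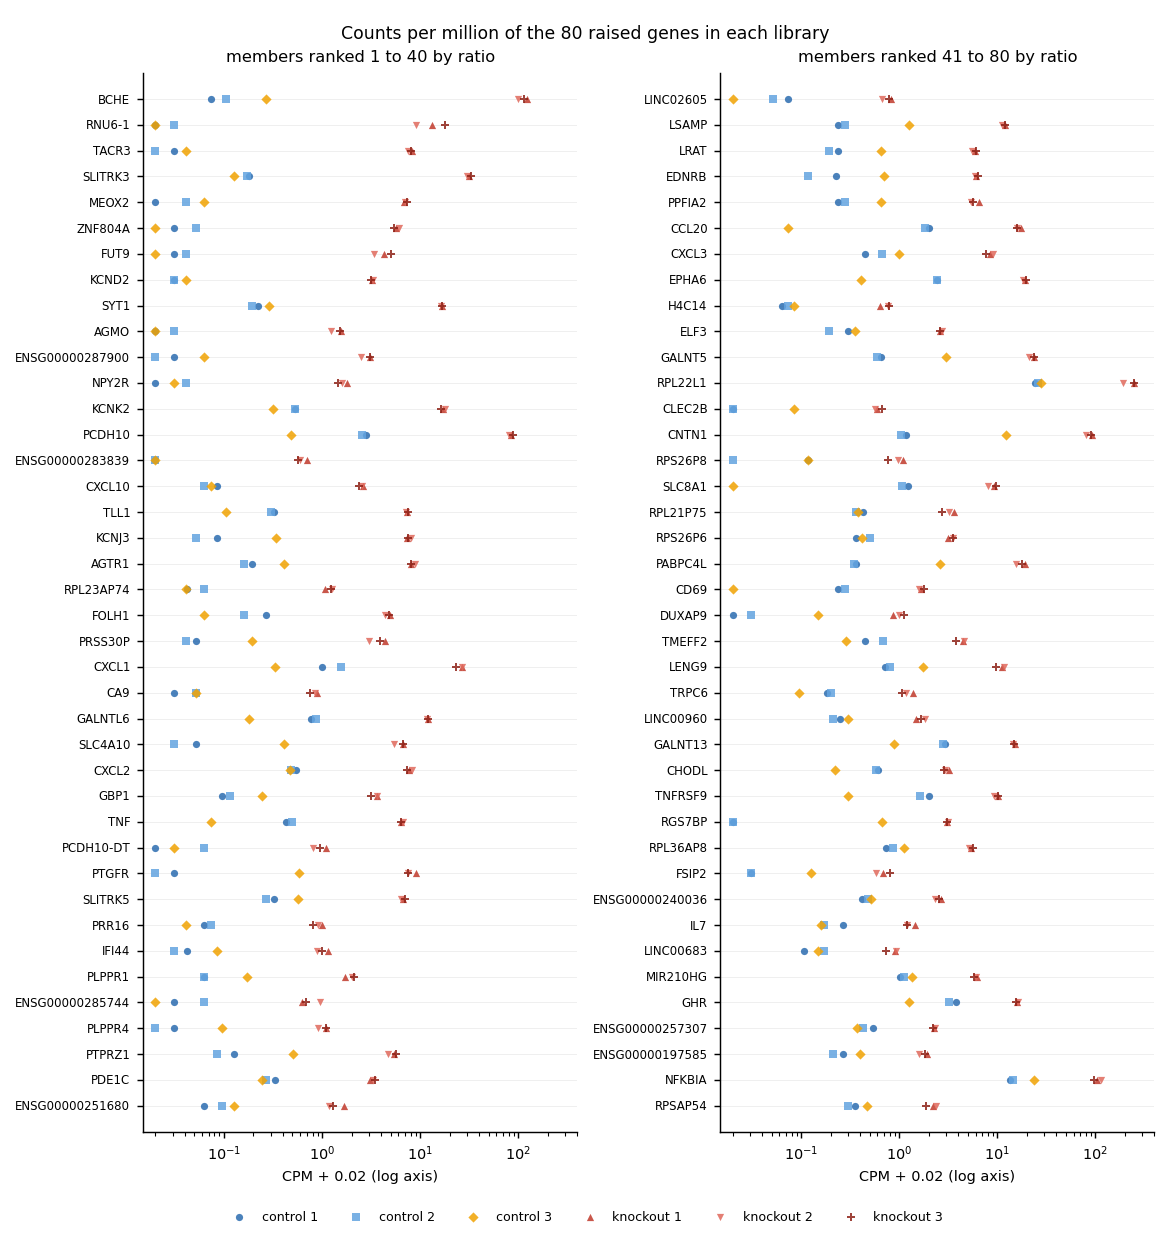
CPM plus 0.02 on a log axis for each of the 80 raised genes, ordered from the highest to the lowest ratio of lowest knockout to highest control, with 1 point per library. The knockout points lie together at the right of every row, whereas control 3 (orange) lies far from controls 1 and 2 in genes such as CNTN1, CCL20, SLC8A1 and PTGFR.

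The control libraries differed among themselves in many of these genes. Control 3 was the highest control in 41 members and the lowest in 28. It was at least 4-fold above the mean of controls 1 and 2 in 14 members and at least 4-fold below it in 8, together 27.5% of members against 5.33% of eligible genes. Members were counted from fewer reads than eligible genes, and the rule favours low controls. CLEC2B, at 0, 0 and 6 control counts, reached 4-fold from few reads. The part that depth and selection have in this contrast was not tested. CNTN1, an immunoglobulin-family adhesion protein of neurons, was at 108, 96 and 1143 counts in controls 1 to 3 and at 8202, 7372 and 8254 in the knockout libraries. Its fold over the mean of controls 1 and 2 was 78.9, but over control 3 it was 7.19 (0.02 CPM added). CCL20 showed the opposite layout, at 8.62-fold over controls 1 and 2 and 224-fold over control 3. Over all members the median fold was 22.6 against controls 1 and 2 and 14.0 against control 3.

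The inflammatory genes formed the best-populated functional group among the raised genes. The list of NF-kB-responsive and cytokine genes held 26 eligible genes, of which 9 were members (CXCL10, CXCL1, CXCL2, TNF, CCL20, CXCL3, CD69, IL7 and NFKBIA), beside 0.535% of all eligible genes. CXCL1, CXCL2 and CXCL3 encode chemokines that attract neutrophils. CXCL1 was at 91, 142 and 29 counts in the controls and at 2358, 2431 and 2126 in the knockout libraries, or 0.939 ± 0.608 and 25.6 ± 1.87 CPM (SD, n = 3 each), a 27.3-fold ratio of pooled CPM. CXCL2 was at 49, 43 and 42 counts in the controls and at 675, 755 and 667 in the knockout libraries (16.2-fold). CXCL3 was at 40, 60 and 91 against 739, 823 and 698 counts (12.2-fold). The controls of CXCL2 lay within a narrow range, while those of CXCL1 and CXCL3 spread widely with control 3 at opposite ends.

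CXCL10, a chemokine for T cells, was at 6, 4 and 5 counts in the controls and at 227, 233 and 214 in the knockout libraries (46.4-fold). CCL20, the ligand of the receptor CCR6, was at 184, 168 and 5 against 1552, 1464 and 1434 counts (12.9-fold). TNF, the cytokine that itself activates NF-kB, was at 38, 44 and 5 against 569, 611 and 578 counts (20.9-fold). In both CCL20 and TNF, control 3 was far below the other controls, and the knockout libraries were far above controls 1 and 2 as well. NFKBIA, the NF-kB inhibitor, was at 1241, 1344 and 2226 counts in the controls and at 9204, 10507 and 8716 in the knockout libraries, 17.2 ± 5.76 and 105 ± 9.58 CPM (6.10-fold). CD69, an early activation antigen of lymphocytes, was at 20, 24 and 0 counts against 146, 145 and 160 (10.6-fold), and IL7, a growth factor for lymphocytes, at 23, 14 and 13 against 126, 107 and 107 (7.02-fold). TNFRSF9, the receptor 4-1BB, stood outside the list and was chosen after its values were seen, at 185, 151 and 26 against 896, 844 and 913 counts (7.57-fold).

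The promoters of some of these genes shared a sequence motif. The 200 bases before the RefSeq start are printed 5′ to 3′ from GRCh38.p14 for the 6 listed members whose window held a match to the NF-kB consensus on either strand, with the matching letters in capitals. This motif was chosen after the values were seen.
CXCL1, chr4:73869193-73869392, plus strand: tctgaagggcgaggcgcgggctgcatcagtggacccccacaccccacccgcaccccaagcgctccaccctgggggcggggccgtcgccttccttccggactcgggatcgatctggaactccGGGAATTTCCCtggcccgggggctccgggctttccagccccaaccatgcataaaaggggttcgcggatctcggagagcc
CXCL2, chr4:74099196-74099395, minus strand: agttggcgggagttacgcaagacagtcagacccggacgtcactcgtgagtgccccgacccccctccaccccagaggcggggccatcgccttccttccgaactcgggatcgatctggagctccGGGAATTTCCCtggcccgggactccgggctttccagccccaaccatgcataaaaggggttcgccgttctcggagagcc
CXCL3, chr4:74038690-74038889, minus strand: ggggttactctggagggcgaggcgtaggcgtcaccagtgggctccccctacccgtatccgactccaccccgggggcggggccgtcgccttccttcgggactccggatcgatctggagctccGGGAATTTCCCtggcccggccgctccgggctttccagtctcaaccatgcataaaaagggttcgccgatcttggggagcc
CXCL10, chr4:76023498-76023697, minus strand: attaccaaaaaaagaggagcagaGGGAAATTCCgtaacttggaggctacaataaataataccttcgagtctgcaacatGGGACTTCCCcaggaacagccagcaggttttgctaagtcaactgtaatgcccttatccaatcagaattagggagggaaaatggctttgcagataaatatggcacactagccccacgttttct
CCL20, chr2:227813642-227813841, plus strand: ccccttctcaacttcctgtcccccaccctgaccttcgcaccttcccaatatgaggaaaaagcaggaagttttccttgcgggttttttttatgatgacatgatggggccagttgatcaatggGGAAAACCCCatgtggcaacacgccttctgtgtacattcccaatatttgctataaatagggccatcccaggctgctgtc
NFKBIA, chr14:35404750-35404949, minus strand: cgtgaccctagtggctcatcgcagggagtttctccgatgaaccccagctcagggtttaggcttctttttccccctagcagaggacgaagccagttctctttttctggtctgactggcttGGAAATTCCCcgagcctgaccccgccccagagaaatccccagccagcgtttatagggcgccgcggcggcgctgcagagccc
The capital run was identical in CXCL1, CXCL2 and CXCL3, where it matched the consensus on both strands in overlapping positions from -79 (CXCL1 and CXCL3) or -78 (CXCL2), counted from -1 at the base before the start. CXCL10 held separate matches, at -177 and -122. CCL20 held its match at -79 and NFKBIA at -81. Over windows of 300 bases, from 250 before to 50 after the start, the consensus was found in 10 of 56 members with a window (17.9%), in 6.77% of 10834 eligible genes and in 5.72% of all 27305 genes with a window. The other members with a match were ELF3, TNFRSF9, PLPPR1 and CA9. TNF held no match in its window, and CD69 and IL7 had no window. The neighbouring genes CXCL1, CXCL2 and CXCL3, with the same capital run, are counted separately among the 10. A match is a description of letters and not a bound site.

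Other genes of the same list were tested, as the rule had not chosen them. In edgeR's quasi-likelihood test with Benjamini-Hochberg adjustment, 9 of 32 were higher in the knockout and 3 lower (28.1% and 9.38%), beside 7.96% higher and 8.67% lower among all 20992 tested genes. Their median log2 fold change was 0.67, against -0.01 over all tested genes. The genes named from this list were chosen after their values were seen. Several of the higher genes are regulators within the NF-kB system. BIRC3, an inhibitor of apoptosis, was at 195, 166 and 298 counts against 1253, 1059 and 1215 (log2 fold change 2.58, SE 0.26, adjusted p = 0.00497). The NF-kB subunit genes RELB (log2 fold change 1.73, adjusted p = 0.0254), NFKB2 (1.12, adjusted p = 0.0152) and NFKB1 (0.68, adjusted p = 0.0216) were higher, whereas the subunit gene RELA (-0.06, adjusted p = 0.794) and the inhibitor gene NFKBIE (-0.13, adjusted p = 0.649) did not pass. So were TNFAIP3, a deubiquitinase that restrains NF-kB (1.96, adjusted p = 0.0309), and VCAM1, a leukocyte adhesion molecule, at 1, 2 and 1 against 25, 16 and 28 counts (4.14, adjusted p = 0.00606). In the other direction, LTBR, the lymphotoxin receptor that activates non-canonical NF-kB, was at 353, 397 and 22 counts against 8, 3 and 7 (-5.24, adjusted p = 0.0293). CX3CL1 and TNFAIP2 were also lower (-3.56 and -2.72). CXCL8, at 462, 523 and 2 against 1396, 1306 and 1527 counts, did not pass (adjusted p = 0.248).

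These counts depended on single libraries. Of the 12 genes called, 2 were called under every alternative fit and 12 kept their direction under each. Without control 3, 17 of the 32 genes were higher and 6 lower, where 32.4% and 33.2% of tested autosomal genes were called higher and lower. Without each of the other libraries in turn, 2 to 5 were higher, where 0.507% to 2.29% of all tested genes were. The median log2 fold change of the list stayed between 0.53 and 0.78.

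**Figure D2:**
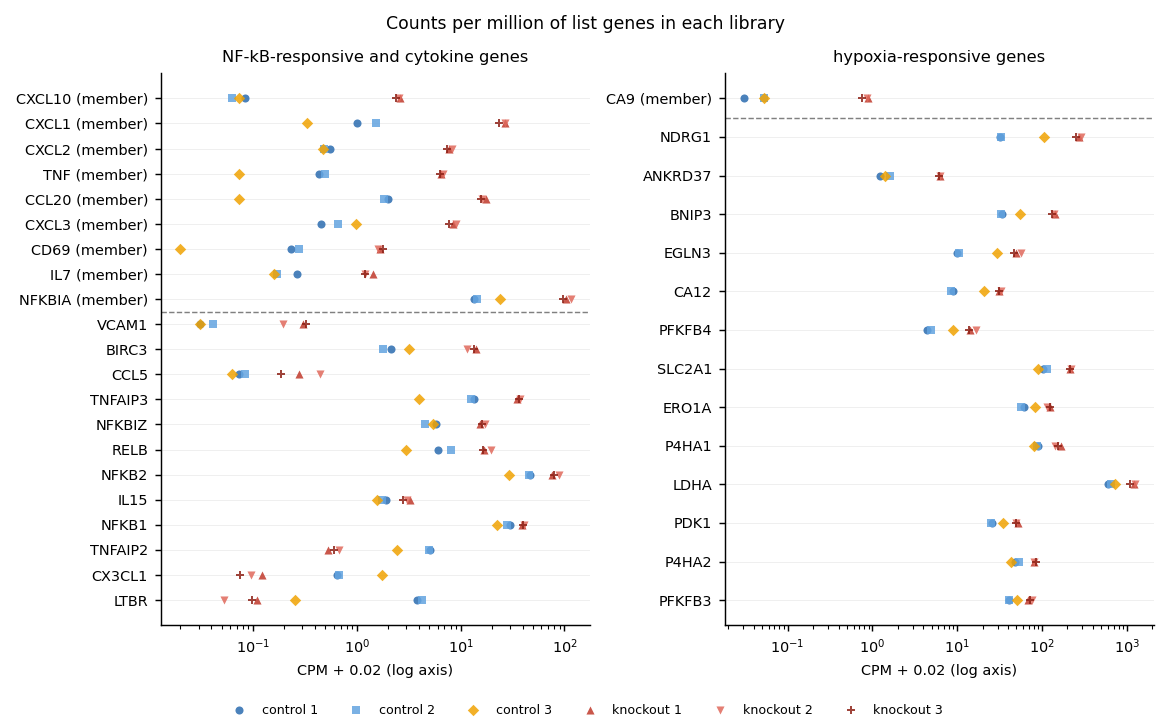
CPM plus 0.02 on a log axis in each library for the NF-kB-responsive and cytokine list (left) and the hypoxia list (right), with raised members above the dashed line and the other genes called by edgeR below it. LTBR, CX3CL1 and TNFAIP2 are the called genes with knockout points left of every control, and every called hypoxia gene has its knockout points on the right.

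Hypoxia-responsive genes gave 1 member of 24 eligible genes, beside 0.535% of all eligible genes. It was CA9, a carbonic anhydrase that is a standard marker of hypoxia, at 1, 3 and 3 counts against 77, 76 and 67 (32.5-fold). MIR210HG, the host RNA of the hypoxia-induced microRNA miR-210, was also a member, at 93, 103 and 125 against 547, 556 and 520 counts (5.22-fold). Of the other 24 tested genes of the hypoxia list, 13 were higher and 0 lower by edgeR (54.2% higher, beside 7.96% of all tested genes), with a median log2 fold change of 0.90. At an unadjusted p under 0.05, 16 were higher and 0 lower, with no share over all tested genes given at that threshold. DESeq2 called 16 higher and 0 lower, and limma-voom 13 and 0, where 11.7% and 9.06% of all tested genes were higher. The genes named from it were chosen after their values were seen. NDRG1, a stress-response gene, was at 2959, 3077 and 9847 against 23862, 26246 and 22936 counts (log2 fold change 2.36, adjusted p = 0.0274). BNIP3, a mitophagy receptor, reached 1.87 (adjusted p = 0.00659). SLC2A1, the glucose transporter GLUT1, was at 9595, 10574 and 8490 against 18916, 20340 and 19488 counts (1.19, adjusted p = 0.0037), and LDHA, which makes lactate, reached 0.96 (adjusted p = 0.0079). Of the 13 genes called, 3 were called under every alternative fit, and 13 kept their direction under each. Without control 3, 18 of 24 were higher and 3 lower, where 32.4% and 33.2% of all tested genes were. Without each of the other libraries in turn, 3 to 8 were higher, where 0.507% to 2.29% of all tested genes were, and the median stayed between 0.79 and 0.96.

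Receptors for peptides and lipid mediators gave 4 members of 28 eligible genes, beside 0.535% of all eligible genes. They were TACR3 for neurokinin B, NPY2R for neuropeptide Y, PTGFR for prostaglandin F2alpha and EDNRB for endothelins. PTGFR was at 1, 0 and 53 counts in the controls and at 805, 685 and 685 in the knockout libraries (41.6-fold). EDNRB was at 19, 9 and 64 against 533, 542 and 582 counts (18.6-fold). AGTR1, the angiotensin II receptor, lay outside the list and was at 16, 13 and 36 against 716, 803 and 726 (35.7-fold). In PTGFR, EDNRB and AGTR1 the knockout values lay close together, and control 3 was the highest control. TACR3 and NPY2R were near 0 in every control: TACR3 was at 1, 0 and 2 against 734, 678 and 729 counts, a ratio of 737 with a 95% counting interval of 252 to 3577, and NPY2R at 0, 2 and 1 against 159, 144 and 130, a ratio of 149 (50.7 to 726). GHR, the growth hormone receptor, differed in layout, with 347, 296 and 115 against 1403, 1496 and 1414 counts (5.88-fold). Of the other 45 tested receptors, 5 were higher and 5 lower by edgeR (11.1% each), near the background of 7.96% and 8.67%.

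Ion channels and transporters of excitable cells were spread over several families. KCNK2, the two-pore potassium channel TREK-1, was at 47, 48 and 28 counts in the controls and at 1508, 1648 and 1475 in the knockout libraries, 0.441 ± 0.122 and 17.1 ± 0.904 CPM (38.9-fold). KCNJ3, an inward rectifier gated by G proteins, was at 6, 3 and 30 against 653, 732 and 686 (54.8-fold). KCND2, the voltage-gated channel Kv4.2, was at 1, 1 and 2 against 281, 301 and 282 (223-fold). Each of these channels had more counts in any knockout library than in all controls together, which the rule ensures for every member. The sodium-calcium exchanger SLC8A1 was at 111, 98 and 0 counts against 811, 724 and 879 (11.9-fold), and the bicarbonate transporter SLC4A10 at 3, 1 and 36 against 588, 498 and 612 (43.8-fold). TRPC6, a calcium-permeable channel, was at 15, 17 and 7 against 121, 106 and 94 (8.50-fold). Of the other voltage-gated potassium channel genes, 5 of 30 were higher and 3 lower (16.7% and 10%). Of the other solute carriers, 38 of 261 were higher and 18 lower (14.6% and 6.90%). Over all tested genes 7.96% were higher and 8.67% lower, so the lower shares of both lists were near background.

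Surface proteins of neurons were also among the members. SLITRK3, a postsynaptic adhesion protein that organises synapses, was at 15, 14 and 10 counts in the controls and at 2809, 2723 and 2967 in the knockout libraries, 0.140 ± 0.0288 and 31.4 ± 1.46 CPM (225-fold). Its relative SLITRK5 was at 28, 23 and 51 against 590, 578 and 636 (18.3-fold). PTPRZ1, a receptor phosphatase of glia, was at 10, 6 and 45 against 481, 432 and 513 (24.1-fold), and the ephrin receptor EPHA6 at 226, 227 and 36 against 1688, 1686 and 1759 (10.8-fold). Together with CNTN1 these were the 5 members of the neuronal adhesion and guidance list. It held 74 eligible genes, and 0.535% of all eligible genes were members. Of the list's 86 other tested genes, 10 were higher and 17 lower (11.6% and 19.8%, beside 7.96% and 8.67% of all tested genes). At an unadjusted p under 0.05 the counts were 21 and 22, with no share over all tested genes given at that threshold. Without control 3 the order turned, with 44 higher and 31 lower, and the median log2 fold change moved from -0.03 to 0.32. In that fit 32.4% of all tested genes were higher and 33.2% lower. FLRT2, a further adhesion protein, was at 3126, 2812 and 88 counts against 15, 13 and 18 (log2 fold change -6.87, adjusted p = 0.0227).

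PCDH10, a non-clustered protocadherin of the nervous system, was at 260, 237 and 43 counts in the controls and at 7483, 7415 and 8119 in the knockout libraries, 1.94 ± 1.28 and 85.1 ± 4.12 CPM (44-fold). It was the 1 member among 25 eligible cadherins and protocadherins, beside 0.535% of all eligible genes. Of the other 35 tested genes 9 were higher and 0 lower by edgeR (25.7% higher, beside 7.96% of all tested genes). At an unadjusted p under 0.05 the counts were 11 and 4, with no share over all tested genes given at that threshold. DESeq2 called 10 higher and 1 lower, where 11.7% and 14.8% of all tested genes were. With limma-voom it was 9 and 0, where 9.06% and 7.72% were. Without control 3, 19 were higher and 8 lower (median log2 fold change 0.44), where 32.4% and 33.2% of all tested genes were. Without each of the other libraries in turn, 0 to 5 were higher, where 0.507% to 2.29% of all tested genes were. The lowest median was 0.01. A block for replicate number left 1 higher, where 1.06% of all tested genes were. PCDH20 was among the largest of these, at 3, 4 and 0 against 45, 40 and 59 counts (log2 fold change 4.44, SE 0.63, adjusted p = 0.0104). SYT1, the calcium sensor of synaptic vesicle release, was at 19, 16 and 25 counts against 1490, 1473 and 1520, 0.215 ± 0.0488 and 16.6 ± 0.389 CPM (77.2-fold). PPFIA2, a liprin scaffold of the presynaptic zone, was at 20, 24 and 59 against 577, 488 and 510 (15.8-fold). Of the other 40 synaptic release genes, 3 were higher and 6 lower (7.5% and 15%, beside 7.96% and 8.67% of all tested genes).

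Enzymes that build glycans gave 4 members of 81 eligible genes in their list, beside 0.535% of all eligible genes. FUT9 adds fucose to make the Lewis x structure and was at 1, 2 and 0 against 379, 310 and 454 counts, a ratio of 393 with a 95% counting interval of 134 to 1911. GALNT5, GALNT13 and GALNTL6 belong to the family that starts mucin-type O-glycans. GALNT5 was at 58, 53 and 276 counts in the controls and at 2087, 1938 and 2149 in the knockout libraries (16.5-fold). GALNTL6 was at 70, 79 and 15 against 1074, 1079 and 1102 (20.5-fold), and GALNT13 at 273, 257 and 81 against 1345, 1315 and 1328 (6.74-fold). Control 3 was the highest control for GALNT5 and the lowest for the other GALNT members. Among 98 other glycosyltransferases tested, 18 were higher and 12 lower (18.4% and 12.2%, beside 7.96% and 8.67% of all tested genes). MGAT4C rose from 3, 1 and 1 to 74, 44 and 60 counts (log2 fold change 5.21, adjusted p = 0.0037), whereas GBGT1, the Forssman synthase, fell from 1052, 1197 and 84 to 1, 4 and 0 (-8.61, adjusted p = 0.0143).

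Other members with known enzymatic or signalling roles stood outside these groups or alone in their list. BCHE, the esterase butyrylcholinesterase, had the highest ratio of lowest knockout to highest control CPM, at 0.129 ± 0.103 and 112 ± 11.1 CPM. AGMO, which cleaves ether lipids, had 135, 110 and 137 knockout counts against 0, 1 and 0 in the controls, a ratio of 394 with a 95% counting interval of 70.4 to 15622. FOLH1, the glutamate carboxypeptidase also known as PSMA, was at 23, 13 and 4 against 438, 395 and 433 counts (32.7-fold), and TLL1, a protease that processes collagen, at 28, 26 and 8 against 641, 653 and 688 (33.0-fold). LRAT, which esterifies retinol, was at 20, 16 and 59 against 521, 505 and 548 (17.1-fold). PRR16 was at 4, 5 and 2 against 87, 82 and 72 counts (22.6-fold), and PDE1C, a calmodulin-dependent phosphodiesterase, at 29, 23 and 21 against 274, 300 and 316 (12.6-fold). The lipid phosphatase-related proteins PLPPR1 and PLPPR4, both known in neurons, were at 24.6-fold and 35.4-fold.

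Transcription factors were few. MEOX2, a homeobox gene of mesoderm, was at 0, 2 and 4 counts in the controls and at 599, 637 and 659 in the knockout libraries (326-fold). ELF3, an epithelial ETS factor, was at 26, 16 and 31 against 226, 247 and 233 (9.99-fold). ZNF804A, a zinc finger gene known from psychiatric genetics, was the 1 member with a ZNF name, at 1, 3 and 0 against 496, 560 and 496 counts (401-fold). Of the other 470 ZNF genes, 72 were lower and 19 higher (15.3% and 4.04%), and without control 3 the counts were 232 and 120. Of the other 180 homeobox, SOX and neural bHLH genes, 25 were lower and 8 higher (13.9% and 4.44%). Without control 3 the order turned in these, with 61 lower and 65 higher. Over all tested genes 8.67% were lower and 7.96% higher, and without control 3 it was 33.2% and 32.4%. The smallest fitted values were those of SOX11, at 13065, 12803 and 803 counts against 10, 10 and 5 (log2 fold change -9.88), and of BHLHE22 (-7.18), ZNF141 (-8.38) and ZNF625 (-8.30). DCN, a matrix proteoglycan, was at 0, 1 and 1 against 30, 33 and 33 counts (5.48, adjusted p = 0.00373), and LMO3 and UGT2B17 were also higher (4.93 and 4.78). Over all lists, 177 of 1738 other genes were higher and 206 lower (10.2% and 11.9%).

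No member belonged to the YAP/TAZ target list (29 eligible genes), the contractile and keratin list (17) or the ionotropic receptor list (10). As 0.535% of all eligible genes were members, 0 members in lists of this size is not informative. Of the YAP/TAZ genes tested, 1 of 31 was higher and 4 were lower (3.23% and 12.9%, beside 7.96% and 8.67% of all tested genes). The lower count was 13 at an unadjusted p under 0.05, with no share over all tested genes given at that threshold. It was 11 with DESeq2 and 1 with limma-voom, where 14.8% and 7.72% of all tested genes were lower. Without control 3 it was 19, where 33.2% of all tested genes were lower. Of the contractile and keratin genes 1 of 28 was higher and 11 were lower (39.3%). Of the ionotropic glutamate and GABA receptor genes, 3 of 23 were higher and 1 was lower. Retinoid, steroid and xenobiotic enzymes gave BCHE and AGMO, with 7 of 86 others higher and 6 lower (8.14% and 6.98%), near the background of 7.96% and 8.67%. Extracellular matrix genes gave TLL1, with 10 of 121 others higher and 16 lower (8.26% and 13.2%). In the matrix list only the higher share was near background. Interferon-responsive genes gave IFI44, at 2, 1 and 6 counts against 99, 80 and 88 (30.6-fold), with 8 of 40 other genes higher and 5 lower. GBP1, an interferon-induced GTPase outside the list, was at 7, 9 and 21 against 323, 331 and 287 counts (26.3-fold). Of the raised genes, 37 matched a list and 43 matched none.

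The remaining protein-coding members were of mixed function. LSAMP, a limbic-system adhesion protein outside the lists, was at 20, 24 and 115 against 1058, 1013 and 1080 counts (20.5-fold). RGS7BP, which anchors a regulator of G protein signalling, was at 0, 0 and 61 against 272, 283 and 279 (14.1-fold), a value set by control 3 alone. LENG9 was at 65, 73 and 162 against 983, 1077 and 878 counts (10.1-fold). The range over TMEFF2, CHODL, FSIP2 and H4C14, a histone H4 gene, was 6.62-fold to 15.7-fold.

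By gene class, 59 members were protein-coding (73.8%, against 83.7% of eligible genes), 11 were lncRNA genes (13.8% against 9.02%), 9 were pseudogenes (11.2% against 6.72%) and 1 was an snRNA gene. The lncRNA members were counted from few reads. ENSG00000283839 was at 0, 0 and 0 against 60, 52 and 50 counts, at least 55.8-fold higher when 3 counts over the control group are taken as the floor. ENSG00000287900 was at 1, 0 and 4 against 271, 224 and 281 (160-fold), and PRSS30P, annotated as lncRNA, at 3, 2 and 16 against 383, 275 and 355 (49.8-fold). ENSG00000285744, LINC02605, ENSG00000251680, LINC00960, LINC00683 and ENSG00000197585 lay between 6.45-fold and 41.1-fold. Among the 55 lowered genes, 85.5% were protein-coding and 5.45% were pseudogenes.

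RPL22L1, a paralogue of the ribosomal protein gene RPL22, was at 2221, 2409 and 2611 counts in the controls and at 22055, 17533 and 22548 in the knockout libraries, 25.9 ± 2.01 and 230 ± 32.9 CPM (8.86-fold). RPL22 itself, at 11469, 11249 and 20580 against 10514, 10830 and 10824 counts, gave a log2 fold change of -0.27 (adjusted p = 0.466), so the pair differed in layout. Of the pseudogenes, 6 were named after ribosomal protein genes: RPL23AP74, RPS26P8, RPS26P6, RPL21P75, RPL36AP8 and RPSAP54. RPS26P6 was at 32, 45 and 37 against 276, 322 and 316 counts (8.28-fold), and RPL21P75 at 38, 32 and 34 against 316, 289 and 249 (8.48-fold). RPL23AP74 was the highest of them (40.8-fold). The others were DUXAP9, at 0, 1 and 12 against 74, 90 and 99 counts (20.9-fold), ENSG00000240036 (5.51-fold) and ENSG00000257307 (5.26-fold). These ribosomal copies can share reads with their parent genes, which makes the counts of the copies uncertain. The parents, chosen after the members were known, changed less, with RPL21 at a log2 fold change of 1.13 (adjusted p = 0.00399), RPS26 at 0.76 (adjusted p = 0.0156) and RPL23A at 0.45 (adjusted p = 0.024). RPL36A (0.69, adjusted p = 0.0509) and RPSA (-0.14, adjusted p = 0.745) did not pass. The part that shared reads have in the pseudogene counts was not tested.

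RNU6-1, a gene for the spliceosomal RNA U6, of which near-identical copies exist elsewhere in the genome, was the snRNA member. It was at 0, 1 and 0 counts in the controls and at 1158, 828 and 1613 in the knockout libraries, a ratio of 3717 with a 95% counting interval of 667 to 146842. RNU6-8, another U6 gene with enough counts to be tested, was at 23, 18 and 44 against 33, 30 and 51 (log2 fold change 0.57, adjusted p = 0.356). Of 113 other small RNA and host genes tested, 11 were higher and 3 lower (9.73% and 2.65%, beside 7.96% and 8.67% of all tested genes). The higher share was near background. The libraries were poly(A)-selected and mature U6 carries no poly(A) tail, and U6 promoters are in common use for guide RNA expression. Which promoter the vector carried was not given in the sources used here, and the origin of these reads was not tested.

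The raised genes were unevenly placed. Chromosomes 2 and 4 held 12 each, 15% of members apiece, where the eligible genes had 7.10% and 3.86%, and chromosomes 10, 20 and 22 held none, with 4.18%, 2.59% and 2.50% of eligible genes. Chromosome 19, which held 6.56% of eligible genes, had 1 member, LENG9. Members had a median of 9 tested genes within 1 Mb, against 22 for eligible and 31 for lowered genes, and 23 of them (28.8%) had at most 5 (5.17% of eligible, 14.5% of lowered). Protein-coding members had a median length of 94.5 kb and 49.2% exceeded 100 kb, against 34.9 kb and 21.2% of protein-coding eligible genes and 28.9 kb and 21.3% of lowered ones.

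**Figure D3:**
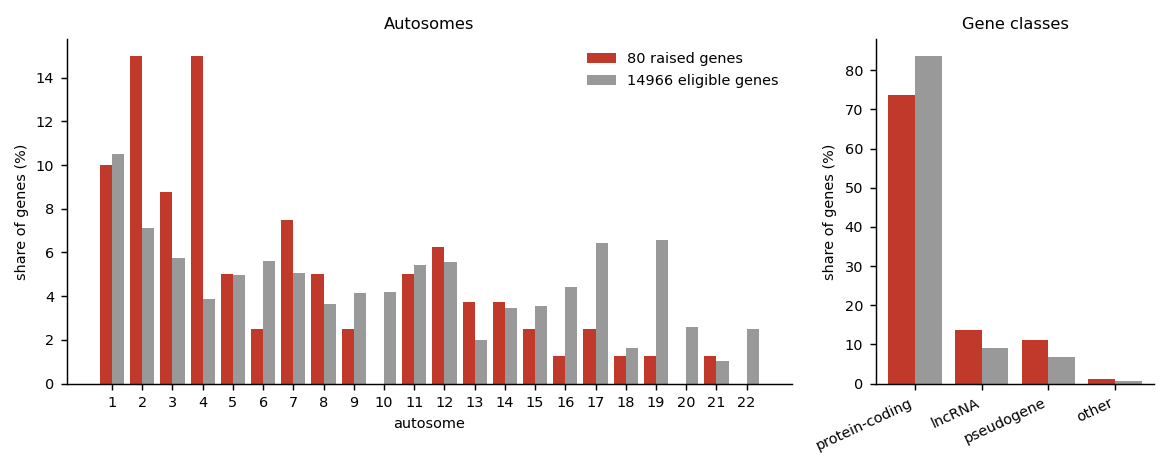
Share in percent of the 80 raised genes (red) and of the 14966 eligible genes (grey) on each autosome (left) and in each gene class (right). Chromosome 4 holds 15% of the raised genes and 3.86% of the eligible genes.

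Of the members, 27 lay within 1 Mb of another member, in 11 groups (33.8%). For the lowered genes it was 17 in 6 groups (30.9%). On chromosome 4, CXCL1 (chr4:73869393-73871308), CXCL3 (chr4:74036589-74038689) and CXCL2 (chr4:74097040-74099195) lay in the chemokine cluster, 165.3 and 58.4 kb apart. CXCL5, which lies between them, gave a log2 fold change of 0.59 (adjusted p = 0.514). PCDH10 (chr4:133149294-133208606) and the divergent lncRNA PCDH10-DT started 0.2 kb apart on opposite strands. PCDH10-DT was at 0, 4 and 1 counts in the controls and at 95, 72 and 84 in the knockout libraries (51.8-fold), and PABPC4L, 739.9 kb further along, at 32, 30 and 240 against 1688, 1400 and 1633 (16.1-fold).

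BCHE (chr3:165772904-165837423) and SLITRK3 (chr3:165186720-165197109) were the tested protein-coding genes of their stretch. The lncRNA LINC01322, which overlaps a member, lay with them at 0, 0 and 1 against 60, 34 and 66 counts (log2 fold change 7.0, adjusted p = 0.00478). On chromosome 7, AGMO and MEOX2 lay 49.2 kb apart. On chromosome 2, GALNT13, the lncRNA ENSG00000287900 and KCNJ3 formed a run with no other tested gene, as did ENSG00000283839, ZNF804A and FSIP2. LRAT and NPY2R on chromosome 4 were 420.6 kb apart, with NPY2R-AS1 at 0, 0 and 0 against 36, 35 and 29 counts between or over them. On chromosome 1, PTGFR and IFI44 lay 109.1 kb apart around IFI44L, and on chromosome 12 CD69 and CLEC2B, both C-type lectin genes, 91.5 kb apart. IL7 with ENSG00000285744 and LINC02605, and NFKBIA with the processed pseudogene ENSG00000257307, made up the remaining groups.

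Genes next to the members were not used by the rule and could be tested. The nearest tested gene on each side, members left out, gave 136 neighbours. By edgeR, 26 were higher in the knockout (19.1%, beside 7.87% of 20145 tested autosomal genes) and 8 were lower (5.88%, beside 8.54%). Their median log2 fold change was 0.22, against -0.01 over tested autosomal genes, and 16.2% reached 1, against 6.59%. Because 24 neighbours overlap a member and the strand setting of the counting was not stated, reads of such pairs may not be separable. Of the 112 neighbours without overlap, 18 were higher (16.1%) and 8 lower.

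The largest fitted log2 fold changes among neighbours, which depend on the prior count where controls were at or near 0, were those of NPY2R-AS1 (log2 fold change 8.15), LINC01322 (7.0), ENSG00000286614 beside DUXAP9 (5.80), SPOCK3 (4.28), PPFIA2-AS1 (4.23) and MIR4500HG (4.20). SPOCK3, a matrix proteoglycan gene next to TLL1, was the 1 of these that did not overlap a member, at 3, 1 and 1 counts against 33, 17 and 44 (adjusted p = 0.00986). Among the lowest were BDNF, a neurotrophin, at 278, 307 and 106 against 56, 42 and 77 counts (-1.83, adjusted p = 0.0419), the clock gene PER3 (-1.37), TPM2 (-1.02), RPRM (-0.80) and ABHD17AP3 (-0.69). Without control 3, 57 neighbours were higher and 36 lower (41.9% and 26.5%, beside 32.4% and 33.2% of tested autosomal genes). Without each other library in turn, 2 to 7 were higher, where 0.486% to 2.24% of tested autosomal genes were. Of the 34 called neighbours, 2 were called under every alternative fit and 34 kept their direction.

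**Figure D4:**
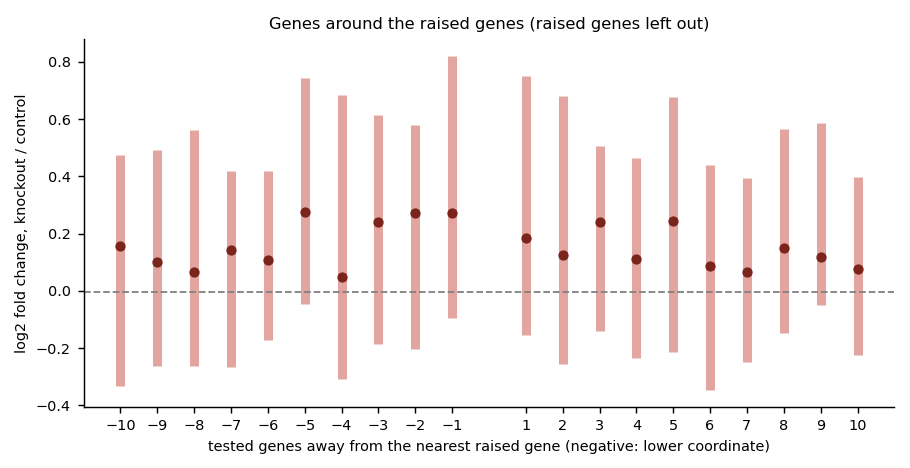
Median log2 fold change (points) and interquartile range (bars) of tested genes from 1 to 10 positions away from the nearest raised gene, with raised genes left out and the median of all tested autosomal genes as a dashed line. Medians lie between 0.05 and 0.28 at every position shown, above the dashed line, and the interquartile ranges all reach below it.

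Promoter windows were found in RefSeq for 56 of the 80 members and for 10834 of the eligible genes. Where a gene had several starts, the most upstream was used. The members had less CpG-rich windows, with a median observed-to-expected CpG ratio of 0.594 against 0.843 and a median GC content of 59.5% against 65.7%. The ratio was below 0.4 in 16 members (28.6%, against 8.97% of eligible genes), among them IFI44, GALNT13, CCL20, BCHE, CXCL10 and CA9. The TATA motif TATAAA, on either strand, was found in 12 members (21.4%), including BCHE, TACR3, MEOX2, CCL20, TNF and NFKBIA, and in 5.73% of eligible and 12% of all windows. CCAAT was found in 39.3% of members and 36.6% of eligible genes (35.7% of all windows). The E-box CACGTG was found in 3 members (5.36%, against 9.98% and 7.41%), the TEAD motif GGAATG in 8 (14.3%, against 10.5% and 14.1%) and the AP-1 motif TGANTCA in 3 (5.36%, against 4.16% and 7.72%).

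**Figure D5:**
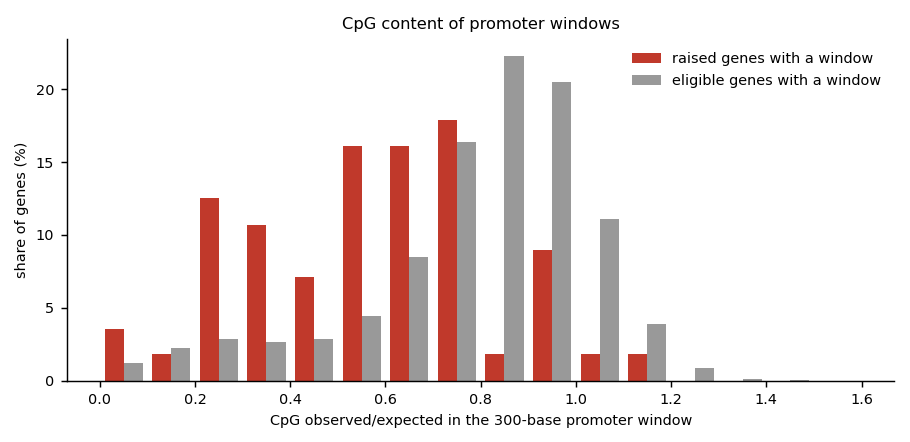
Share in percent of the 56 raised genes (red) and the 10834 eligible genes (grey) with a promoter window, by the observed-to-expected CpG ratio of 300 bases in bins of 0.1. Of the raised genes 28.6% lie below a ratio of 0.4, against 8.97% of the eligible genes.

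Just inside the 4-fold threshold lay ENSG00000197585, NFKBIA and RPSAP54, with ratios of 4.05, 4.02 and 4.0, and just outside it lay IFI44L, SELE and ANKRD37, with 3.84, 3.83 and 3.80. IFI44L was at 6, 6 and 37 counts against 154, 144 and 176, SELE at 18, 21 and 0 against 98, 84 and 94, and ANKRD37 at 112, 147 and 131 against 551, 577 and 550. Control 3 was the highest control for IFI44L and the lowest for SELE. SELE, an endothelial adhesion molecule induced through NF-kB, and ANKRD37, a hypoxia target, belong to the same kinds of gene as the members.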

How the data were processed

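The 6 RNA-seq libraries (3 per group) were assigned to groups by treatment and title in their labels. The table the authors deposited holds unnormalized counts, all whole numbers, for 62754 genes with Ensembl identifiers. The study's methods describe poly(A)-selected, dUTP strand-specific libraries quantified with Salmon on hg38 after Trimmomatic, the submitters' processing notes name STAR 2.7.10b, featureCounts 2.0.0 and hg38, and the extraction protocol names hg19. The step that produced the whole counts and its strand setting were not given in the sources used here.

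The members and lists were chosen with earlier results of these data known. All 80 members passed edgeR's expression filter. Neighbouring genes and genes of 18 lists were tested with edgeR 4.0.16 in R 4.3.3 (TMM, filterByExpr with a minimum count of 10, two-sided quasi-likelihood test, Benjamini-Hochberg adjustment over 20992 genes, adjusted p of at most 0.05), with DESeq2 1.42.0 and limma 3.58.1 as alternatives. The fit was tested on simulated data. Total counts were 88361827 to 93346824 per library, and 3 counts correspond to 0.0321 to 0.034 CPM. Intervals of ratios are exact for counting error only, and group SDs carry the spread between libraries. Biotype, chromosome, gene length and gene order came from GENCODE v44lift37 (60878 genes matched), and printed coordinates and promoters from RefSeq GRCh38.p14, matched by symbol and chromosome (73 of 80 members). Names followed this rule: the 25 members with the highest ratio, the 10 with the highest mean knockout CPM, up to 6 members a list, members beside another member, 3 genes on each side of the threshold, and called neighbours or list genes with the 6 largest and 6 smallest log2 fold changes. Every other gene named was chosen after its values were seen. The sequence of 1 member and 1 neighbouring gene that this rule names are not reported here.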

Additional observations from a re-analysis of the deposited data

How the results depend on the processing

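The number of raised genes was 83 with TMM-scaled totals, 82 with DESeq2 size factors and 82 with totals without mitochondrial genes (chosen after seeing the data). It was 108 with a ratio of 3, and 114 or 54 with minimum counts of 10 or 200. It moved to 42 with 0.5 added to CPM and to 45 with a ratio of 8. Leaving out single libraries gave 80 to 411, the highest without control 3, and 80 to 86 without any other library. As the rule compares the lowest knockout with the highest control, leaving out a library can only keep or add genes. These omissions therefore could not have lowered the number.

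Neighbours called higher by edgeR numbered 15 when 10 counts were required in all 6 libraries, where 8.26% of tested autosomal genes were. Leaving out single libraries gave 2 to 57: 6 without control 1, 7 without control 2, 57 without control 3, and 2, 6 and 2 without knockout 1, 2 and 3. The share of tested autosomal genes called higher was 32.4% without control 3 and at most 2.24% without any other library. Neighbours called lower numbered 4 without a filter and 0 to 36 on leaving out single libraries: 1 without control 1 or control 2, 36 without control 3, and 0, 1 and 0 without knockout 1, 2 and 3. Tested autosomal genes called lower were 3.3% without a filter, 33.2% without control 3 and at most 2.48% without any other library. At an unadjusted p under 0.05, edgeR gave 11 and 9 lower without knockout 1 and 3, with no background share given. With all libraries DESeq2 called 12 neighbours lower and limma-voom 6, where 14.7% and 7.59% of tested autosomal genes were. Other list genes called higher and lower numbered 266 and 319 with DESeq2, where 11.7% and 14.8% of all tested genes were called. They ranged from 14 to 675 higher and from 16 to 598 lower on leaving out single libraries, with both highest values without control 3. Over all tested genes the shares moved as well, from 0.507% to 32.4% higher and from 0.256% to 33.2% lower. Every other omission also gave less than the 177 and 206 of all libraries. The most were 60 higher and 75 lower, both without control 1, where 2.29% and 2.59% of all tested genes were called.

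Replicate numbers did not pair the libraries, since deviations of same-numbered libraries correlated at 0.0472, 0.0446 and -0.0395. A block for replicate number left 4 neighbours called higher and 0 lower, where 1.03% and 0.824% of tested autosomal genes were called. At an unadjusted p under 0.05 the block gave 40 and 13 neighbours, with no background share given. It left 31 and 35 other list genes called, where 1.06% and 0.881% of all tested genes were. Members with few control counts have ratios with wide counting intervals, which limits the order among them.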
